A study of Homo sapiens with 6 samples.

Results

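The ATP-binding cassette (ABC) transporter genes were read in COLO-320DM, an established human colorectal cancer cell line, sorted into fractions with and without surface CD44, a receptor for hyaluronan by which stem-like tumour cells are often picked out. Members were all probe sets whose single platform symbol began with ABCA to ABCG followed by a number, apart from pseudogenes named with a P and antisense genes. This gave 96 probe sets of 42 genes, of 19775 genes with a single symbol in all. Each gene was read on its probe set with the highest mean. The samples were 3 Affymetrix arrays of CD44-positive and 3 of CD44-negative cells, numbered 1, 2 and 3 in each group. All of the cells were untreated, came from this single line and were grown in dishes to near confluence. Whether the replicates were separate cultures is not stated, so the p-values reflect the spread of these arrays, which could be purely technical.

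ABC proteins bind and split ATP in a conserved cassette and, in most family members, use the energy to move a substrate across a membrane. The A and G subfamilies mostly handle lipids and sterols. Several B and C members and ABCG2 pump drugs, dyes and conjugated metabolites out of the cell, while other members work in mitochondria, peroxisomes or lysosomes. The E and F proteins have no membrane domain and act in translation. Dye efflux by ABCG2 and ABCB1 is a common way of enriching stem-like cells from tumours. In intestinal epithelium the drug pumps are known as a barrier to xenobiotics.

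Levels are log2 intensity throughout, and differences are CD44-positive minus CD44-negative on the same scale. A level depends on the probe set as well as on the RNA, so levels of different genes were not set against each other. CD44 itself stood at 7.86, 8.12 and 7.11 in the CD44-positive arrays, against 5.41, 5.29 and 4.99 in the CD44-negative arrays. Of 9 colorectal epithelial markers 7 were tested, 4 above and 3 below 0. CDX2 was at means of 11.61 in CD44-positive and 11.69 in CD44-negative cells, and KRT18 at 9.95 in CD44-positive and 10.05 in CD44-negative cells. KRT20 lay higher, at 6.67, 7.23 and 7.02 in CD44-positive cells, against 6.33, 6.10 and 6.60 in CD44-negative cells, without overlap (difference 0.63, limma's adjusted p = 0.298 with arrays paired by replicate number). CDH17 differed by 0.29, with limma's adjusted p at 0.662 with pairing. Its replicate 3 went the other way, at 6.71 in CD44-positive and 6.82 in CD44-negative cells. It passed in the paired fit only when replicate 3 was left out (adjusted p = 0.0314). The epithelial surface genes EPCAM, at means of 4.40 in CD44-positive and 4.87 in CD44-negative cells, and CDH1, at 4.07 in CD44-positive and 4.17 in CD44-negative cells, lay under the brightness limit of 5.12 in both sorts. That limit is the 30th percentile of the gene means, below which genes were called dim and were not tested. Fibroblast markers summed to linear intensities of 1506 to 3696 in CD44-positive and 1191 to 2319 in CD44-negative arrays. COL3A1, a fibrillar collagen, was at 11.63, 10.02 and 11.60 in CD44-positive cells, against 10.61, 9.45 and 10.85 in CD44-negative cells. It was higher in 3 of 3 pairs, by 0.78 on average, with an adjusted p of 1.00 without and 0.0526 with pairing, and passed with pairing and a variance trend (0.00091), without replicate 2 (0.0027) and without replicate 3 (0.0102). COL1A2 differed by 0.31 and COL1A1 by -0.23, both without overlap. DCN differed by -0.036, PDGFRB by -0.13 and THY1 by 0.052. Of the 9 fibroblast markers 6 were tested, 3 above and 3 below 0, with a median of 0.0078. LUM, FAP and POSTN were dim in the mean of all arrays. FAP differed by 0.16 and POSTN by -0.14. LUM was at 5.63, 4.18 and 3.84 in CD44-positive cells, against 2.36, 2.79 and 2.44 in CD44-negative cells, without overlap. Leukocyte markers summed to 352 to 363 in CD44-positive and 354 to 391 in CD44-negative arrays. Endothelial markers summed to 235 to 271 in CD44-positive and 243 to 259 in CD44-negative arrays. Neuroendocrine markers summed to 179 to 265 in CD44-positive and 160 to 238 in CD44-negative arrays. These 3 sums overlapped between the groups, but the 3 neuroendocrine genes tested were higher in 3 of 3 pairs each. The other 3 on the array were dim and had mixed signs, with CHGB at 0.17, CHGA at -0.021 and INSM1 at -0.073. ENO2 differed by 0.49 (adjusted p = 0.272 with pairing and 0.0428 with pairing without replicate 2), SYP by 0.17 without overlap, and NCAM1 by 0.080. The part of these markers in the ABC results was not tested.

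Of the 42 ABC genes, 26 lay above the limit and 16 were dim. ABCA1, at a mean of 5.21, was the gene just above it and ABCC11, at 4.98, the gene just below. None of the 26 tested ABC genes passed the test between the sorted populations. Among the 16 dim genes, which were not tested here, the groups did not overlap in ABCG2 and ABCC9. With no brightness filter, 6.25% of all 19775 genes did not overlap. The test was limma's moderated test over 13842 genes, and p-values were adjusted by Benjamini-Hochberg over all of them and called under 0.05. In the fit without pairing 0 of the 26 passed, beside 0 of all genes, a percentage of 0. With the replicate number as a block, which compares same-numbered arrays, 0 of the 26 passed, beside 8 of all genes or 0.0578%. At an unadjusted p under 0.05 there were also 0 of the 26 in either fit, against 1.97% of all genes without and 7.49% with the block. The smallest adjusted p of a tested ABC gene was 1.00 without the block and 0.727 with it.

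The differences of the 26 genes ran from -0.14 to 0.15, a size of at most 1.11-fold, with 15 above and 11 below 0. Higher means were seen in 48.9% of all genes. The median was 0.0028, beside -0.0025 over all genes tested, and the median absolute difference was 0.029, beside 0.060. The 95% confidence interval of each of the 26 lay within 1.5-fold in either direction, which held for 93.2% of all genes. With the block all 26 intervals lay within 1.3-fold, against 89.6% of all genes. The 3 arrays of a group never lay all above or all below those of the other group in these 26 genes, a pattern found in 5.43% of all genes. A median 95% interval without pairing reached 0.26 to either side of the difference. These intervals are per gene and not adjusted for the number of genes, so 0.26 is not the smallest change the adjusted test could call. Without pairing that test passed 0 of all 13842 genes, so its lack of calls among ABC genes says little.

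**Figure D1:**
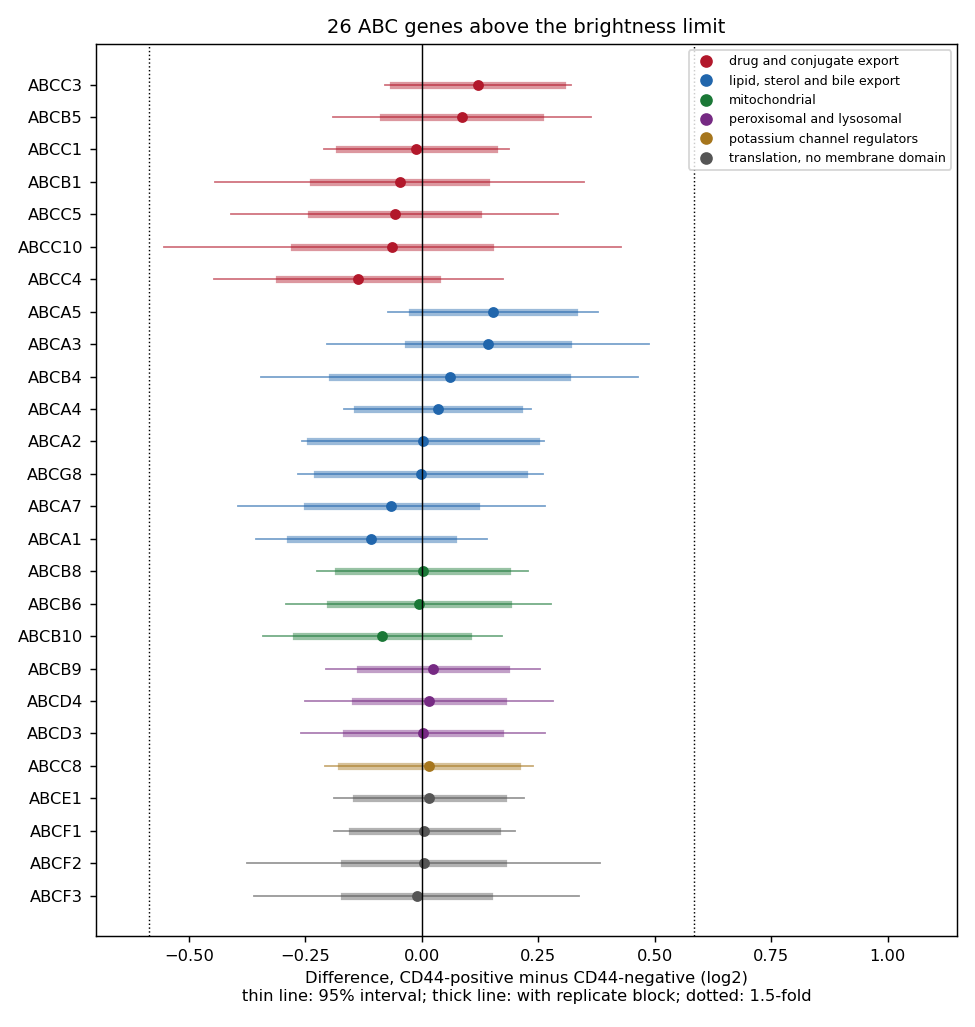
Difference between CD44-positive and CD44-negative cells on the log2 scale for the 26 tested ABC genes, coloured by role, with the 95% interval of the fit without (thin line) and with the replicate block (thick line). Points lie between -0.14 and 0.15, each interval crosses 0, and no interval reaches the dotted lines at 1.5-fold.

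Drug and conjugate exporters comprised 11 of the 42 genes, of which 7 were tested, 2 above and 5 below 0, with a median difference of -0.048. ABCB1 encodes P-glycoprotein, the multidrug efflux pump. It was at 10.15, 9.79 and 10.16 in CD44-positive replicates 1, 2 and 3, against 10.10, 9.76 and 10.38 in CD44-negative replicates 1, 2 and 3. The groups overlapped, and replicate 2 was the lowest array of each group. The difference was -0.048 ± 0.17 (SE), with a 95% interval from -0.44 to 0.35, or from -0.23 to 0.14 with the block. A second ABCB1 probe set gave 8.38, 8.04 and 8.57 in CD44-positive cells, against 8.63, 8.10 and 8.82 in CD44-negative cells, again with replicate 2 lowest in each. Its difference of -0.18 was the largest in absolute size among the 46 member probe sets above the limit.

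The 250 bases before each start of ABCB1 that RefSeq lists (GRCh38.p14, minus strand) are shown because it is the best known pump of the family and the series concerns Wnt signalling, whose TCF/LEF factors bind sites such as CTTTGAT. The windows are chr7:87713296-87713545 for the upstream and chr7:87600885-87601134 for the downstream start, in the gene at chr7:87503017-87713295. Capitals mark the letters CCAAT on either strand.
ABCB1 upstream start: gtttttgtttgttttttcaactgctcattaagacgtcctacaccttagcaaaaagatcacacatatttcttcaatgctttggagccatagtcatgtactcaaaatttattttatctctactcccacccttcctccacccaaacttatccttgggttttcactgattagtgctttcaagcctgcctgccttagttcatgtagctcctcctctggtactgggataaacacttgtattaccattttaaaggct
ABCB1 downstream start: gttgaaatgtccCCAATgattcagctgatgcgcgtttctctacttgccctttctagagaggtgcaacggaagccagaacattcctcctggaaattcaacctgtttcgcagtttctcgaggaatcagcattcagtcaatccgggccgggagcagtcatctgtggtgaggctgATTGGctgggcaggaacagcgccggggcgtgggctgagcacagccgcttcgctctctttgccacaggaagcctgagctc

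In the downstream window CCAAT was found at -238 to -234 on the plus sense of the gene and at -79 to -75 on the opposite strand, counted back from the start. RefSeq promoter windows were at hand for 33 of the 42 genes, 49 windows in all. CTTTGAT, searched on both strands, was in 0 of these 49, against 2.26% of 35116 windows of the same length. The GC box GGGCGG was in 51.0% of the member windows and 42.6% of all windows, and CCAAT in 20.4% and 32.0%. The TATA letters TATAAA were in 10.2% and 10.7%. Matches of different motifs were counted separately and may overlap. A match or its absence describes these letters only.

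ABCC1, the exporter MRP1 of glutathione conjugates and drugs, varied little. It stood at 9.63, 9.47 and 9.52 in CD44-positive replicates 1 to 3, against 9.55, 9.52 and 9.60 in CD44-negative replicates 1 to 3, and the groups overlapped. The difference was -0.011, with an interval from -0.21 to 0.19. ABCC4, MRP4, which exports cyclic nucleotides and prostanoids, had the lowest difference of the 26. Its levels were 9.83, 9.76 and 9.49 in CD44-positive cells, against 9.88, 10.00 and 9.60 in CD44-negative cells. Each CD44-positive array lay below its same-numbered partner, with differences of -0.052, -0.24 and -0.11, but the groups overlapped. The difference was -0.14 ± 0.13 (SE), with an adjusted p of 1.00 without and 0.765 with the block. All 3 ABCC4 probe sets above the limit were below 0, from -0.14 to -0.048.

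ABCC3, MRP3, which exports glucuronides and bile salts across the basolateral membrane, was at 6.64, 6.57 and 6.70 in CD44-positive cells, against 6.52, 6.58 and 6.45 in CD44-negative cells. CD44-positive replicate 2 fell among the CD44-negative values and the other two above them. The difference of 0.12, with an interval from -0.080 to 0.32, came from a probe set with the cross-hybridisation suffix. The 4 ABCC3 probe sets above the limit disagreed, from -0.14 to 0.12, and their sign was mixed, so no direction can be given for this gene. ABCB5, which is known as a marker of stem-like melanoma cells, stood at 6.61, 6.27 and 6.56 in CD44-positive replicates, against 6.42, 6.25 and 6.51 in CD44-negative replicates. It was higher in 3 of 3 pairs, by 0.20, 0.014 and 0.048, although the groups overlapped, and the difference was 0.086 with an interval from -0.19 to 0.36. Its other 3 probe sets were dim.

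ABCC5, MRP5, which exports cyclic nucleotides, was at 8.38, 8.70 and 8.44 in CD44-positive cells, against 8.45, 8.88 and 8.37 in CD44-negative cells, highest in replicate 2 of each. Its difference was -0.058, and all 3 of its probe sets above the limit were below 0, down to -0.14. ABCC10, MRP7, stood at 6.75, 6.86 and 7.41 in CD44-positive replicates, against 7.04, 6.75 and 7.42 in CD44-negative replicates, highest in replicate 3 of each. Its interval was the widest of the 26, from -0.55 to 0.43, and narrowed to between -0.27 and 0.15 with the block. Both ABCC10 probe sets are of the shared or cross-hybridising kind, so its identity is less certain. Probe sets of the shared kind were also read for ABCC5, ABCA7, ABCB4, ABCB10, ABCE1, ABCF2 and ABCF3, among others.

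ABCG2, the breast cancer resistance protein, whose efflux of dyes defines side population cells, was dim. Its single probe set was at 4.50, 4.62 and 4.36 in the CD44-positive arrays, against 5.05, 4.68 and 4.77 in the CD44-negative arrays. All CD44-positive arrays lay below all CD44-negative arrays, and the pairs differed by -0.55, -0.059 and -0.41. In a fit with no brightness filter the difference was -0.34 ± 0.12 (SE), with an unadjusted p of 0.0220 without and 0.0132 with the block and an adjusted p of 1.00 without and 0.554 with it. With that fit 6.25% of 19775 genes did not overlap between the groups. Each of the 6 ABCG2 values lay under the limit, where intensity is compressed towards background, so the size of this difference is approximate. In such bulk RNA fewer cells with a transcript and less of it per cell cannot be told apart.

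Of 17 members that export lipids, sterols or bile constituents, 8 were tested, with 5 above and 3 below 0 and a median difference of 0.019. ABCA5, an endosomal and lysosomal transporter linked to cholesterol handling, had the highest difference of the 26. It was at 6.06, 5.93 and 5.81 in CD44-positive cells, against 5.78, 5.86 and 5.71 in CD44-negative cells. Each pair was higher on the CD44-positive side, by 0.28, 0.077 and 0.10, yet the groups overlapped. Its difference, 0.15 ± 0.098 (SE), reached an adjusted p of 1.00 without and 0.727 with the block.

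ABCA3, which loads surfactant phospholipid into lamellar bodies in lung, stood at 8.00, 7.61 and 7.75 in CD44-positive cells, against 7.85, 7.37 and 7.71 in CD44-negative cells. It was higher in 3 of 3 pairs, by 0.15, 0.24 and 0.034, and replicate 2 was lowest in each group. The difference was 0.14 ± 0.15 (SE), with an adjusted p of 0.754 with the block. ABCA1, which passes cholesterol and phospholipid to apolipoprotein A-I, was at 4.97, 5.31 and 5.18 in CD44-positive cells, against 5.20, 5.32 and 5.26 in CD44-negative cells. All 3 pairs were below 0, at -0.24, -0.012 and -0.077, and the difference was -0.11 with an interval from -0.36 to 0.14. These values lay close to the limit, and the other 3 ABCA1 probe sets were dim. Over all tested genes 13.7% were higher and 14.8% lower in each of the 3 pairs. Among the 26 these were 3 genes (ABCA3, ABCA5 and ABCB5) and 2 genes (ABCA1 and ABCC4).

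ABCA7, a phospholipid transporter related to ABCA1, was at 6.59, 6.29 and 6.50 in CD44-positive cells, against 6.62, 6.24 and 6.71 in CD44-negative cells, lowest in replicate 2 of each. ABCA4, the retinal transporter of retinoid conjugates, was near the limit at 5.32, 5.28 and 5.16 in CD44-positive cells, against 5.17, 5.26 and 5.23 in CD44-negative cells. ABCA7 differed by -0.065 and ABCA4 by 0.034, and the groups overlapped in both. ABCB4, the phosphatidylcholine floppase of bile, stood at 8.78, 8.48 and 8.56 in CD44-positive replicates, against 8.72, 8.14 and 8.78 in CD44-negative replicates. The pairs had mixed signs, at 0.060, 0.34 and -0.22, and the difference was 0.060 with an interval from -0.34 to 0.46.

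ABCB4 lies beside ABCB1 on chromosome 7, at chr7:87365896-87476027 in GRCh38.p14, and both genes were lowest in replicate 2 of each sorted group. The probe set that the platform assigns to both genes, and that was left out for this reason, was also lowest in replicate 2 of each. It stood at 10.21, 9.84 and 10.35 in CD44-positive cells, against 10.16, 9.89 and 10.56 in CD44-negative cells. The genes are close paralogs, and cross-hybridisation between their probe sets was not tested. ABCA2 and ABCG8 differed by 0.0030 and -0.0022. ABCG1, which exports cholesterol to high-density lipoprotein, was dim at 4.91, 5.12 and 4.96 in CD44-positive cells, against 4.98, 4.86 and 4.86 in CD44-negative cells.

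All 3 mitochondrial members were tested and had differences between -0.085 and 0.0016. The lowest was ABCB10, an inner membrane protein needed for haem synthesis, at 9.75, 9.38 and 9.52 in CD44-positive cells, against 9.70, 9.61 and 9.58 in CD44-negative cells. ABCB6, a porphyrin transporter, and ABCB8 differed by -0.0067 and 0.0016. Of 4 peroxisomal and lysosomal members, ABCD2 was dim. ABCD3, which imports fatty acyl-CoA into peroxisomes, ABCD4, which works in lysosomal cobalamin release, and ABCB9, a lysosomal peptide transporter, differed by 0.0027, 0.015 and 0.024. ABCC8, the sulfonylurea receptor SUR1, differed by 0.015.

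The 4 E and F members, which act on ribosomes, stayed between -0.011 and 0.016. ABCE1, which splits ribosomes for recycling, was at 11.06, 10.99 and 11.10 in CD44-positive cells, against 11.09, 10.93 and 11.08 in CD44-negative cells. Its difference of 0.016 had an interval from -0.19 to 0.22, and its second probe set gave 0.024. ABCF1 differed by 0.0059, ABCF2 by 0.0039 and ABCF3 by -0.011. Over the family, 13 genes had several probe sets above the limit, and these shared a sign in 8 genes and had mixed signs in 5.

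The 16 dim genes had means from 2.41 to 4.98 and differences from -0.34 to 0.14, with 6 above and 10 below 0. In 14 of them the groups overlapped, the exceptions being ABCG2 and ABCC9. Lack of overlap was found in 6.25% of all 19775 genes with no brightness filter. ABCC9, the sulfonylurea receptor SUR2, was named after its values were seen. On the probe set used it was at 3.71, 3.57 and 3.84 in the CD44-positive arrays, against 4.08, 3.98 and 4.04 in the CD44-negative arrays. The difference with no brightness filter was -0.33 ± 0.099 (SE), with an unadjusted p of 0.00989 without and 0.00396 with the block and an adjusted p of 1.00 without and 0.414 with it. The other 4 ABCC9 probe sets differed by 0.030, 0.12, -0.014 and 0.10, so the lower value was seen on 1 of 5 probe sets. ABCA6, ABCA8, ABCA9, ABCA12, ABCA13, ABCB11, ABCC2, ABCC11, ABCC12, ABCC13, ABCD2, ABCG4 and ABCG5 completed the dim set with ABCG1. ABCC13 is a transcribed pseudogene in RefSeq that the naming rule keeps. For dim genes low RNA and weak probes cannot be told apart.

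**Figure D2:**
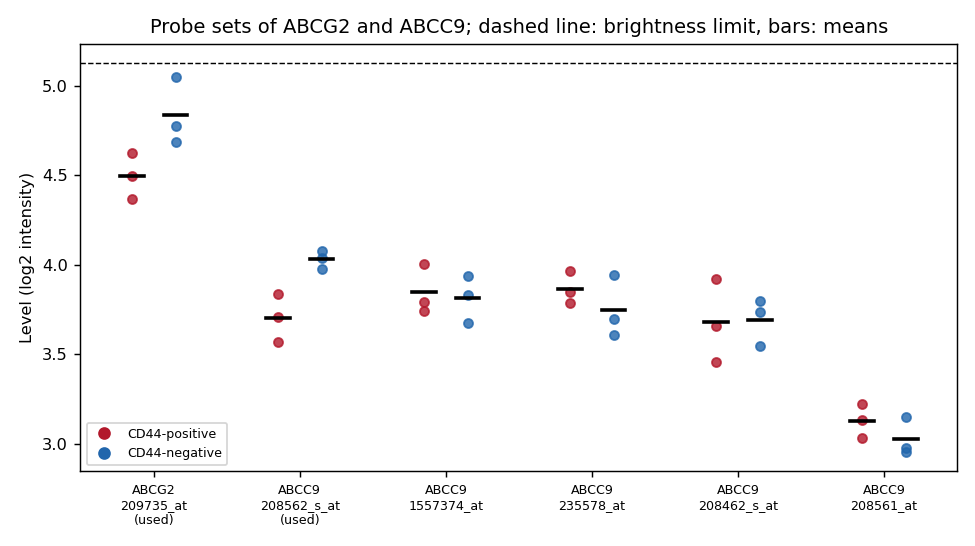
Level (log2 intensity) of the ABCG2 and ABCC9 probe sets on each array, CD44-positive left of CD44-negative, with group means as bars and the brightness limit of 5.12 as a dashed line. The groups are apart on the single ABCG2 probe set and on 1 of 5 ABCC9 probe sets, and all values lie under the limit.

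The larger spread in ABC genes lay between replicate numbers. CD44 status took a median of 1.48% of the sum of squares of the 26 genes and replicate number 80.2%, against 7.05% and 65.6% over all genes. Replicate number took the larger share in 24 of the 26, the exceptions being ABCA5 and ABCC3, and in 85.5% of all genes. Replicate number has 3 levels and CD44 status 2, so the 2 shares are not on equal terms. When group means were subtracted, the 26 genes gave correlations of 0.649, 0.815 and 0.628 between the arrays of pairs 1, 2 and 3. These are correlations across 26 genes that share arrays, given as a description. What the numbers stand for is not given in the labels.

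**Figure D3:**
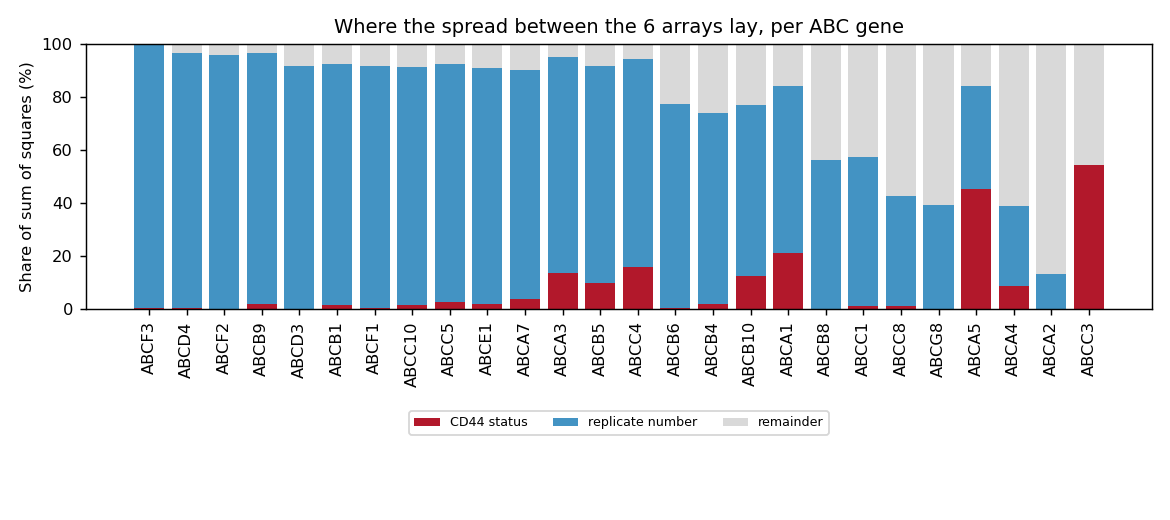
Share of each tested ABC gene's sum of squares over the 6 arrays (percent, stacked bars) by CD44 status, replicate number and the remainder. Replicate number takes its largest shares in ABCF3, ABCD4, ABCF2 and ABCB9. CD44 status takes a larger share than replicate number in ABCA5 and ABCC3.

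A test of replicate number, limma's F test in the blocked fit, was added after the values were seen. It passed 4 of the 26 ABC genes, beside 10.3% of all genes. ABCC10 (adjusted p = 0.0287), ABCF2 (adjusted p = 0.0349), ABCF3 (adjusted p = 0.0355) and ABCB1 (adjusted p = 0.0396) passed, and ABCA3 lay just outside at 0.0504. ABCF2 stood at 9.15, 8.99 and 8.59 in CD44-positive cells, against 9.04, 9.01 and 8.67 in CD44-negative cells, lowest in replicate 3 of each. ABCF3 was at 7.89, 8.26 and 7.82 in CD44-positive cells, against 7.92, 8.24 and 7.84 in CD44-negative cells, highest in replicate 2 of each. ABCB1 and ABCC10 were both highest in replicate 3 of each group, unlike ABCF2 and ABCF3. With no brightness filter the count was 0 (3.77% of all genes), and with a limit at the 50th percentile 8 (20.8%). It was 9 with a variance trend (22.8%) and 2 without replicate 2 (4.88%). With only probe sets free of shared-transcript suffixes it was 1 (7.89%), and that gene was ABCC5, not one of the 4.

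**Figure D4:**
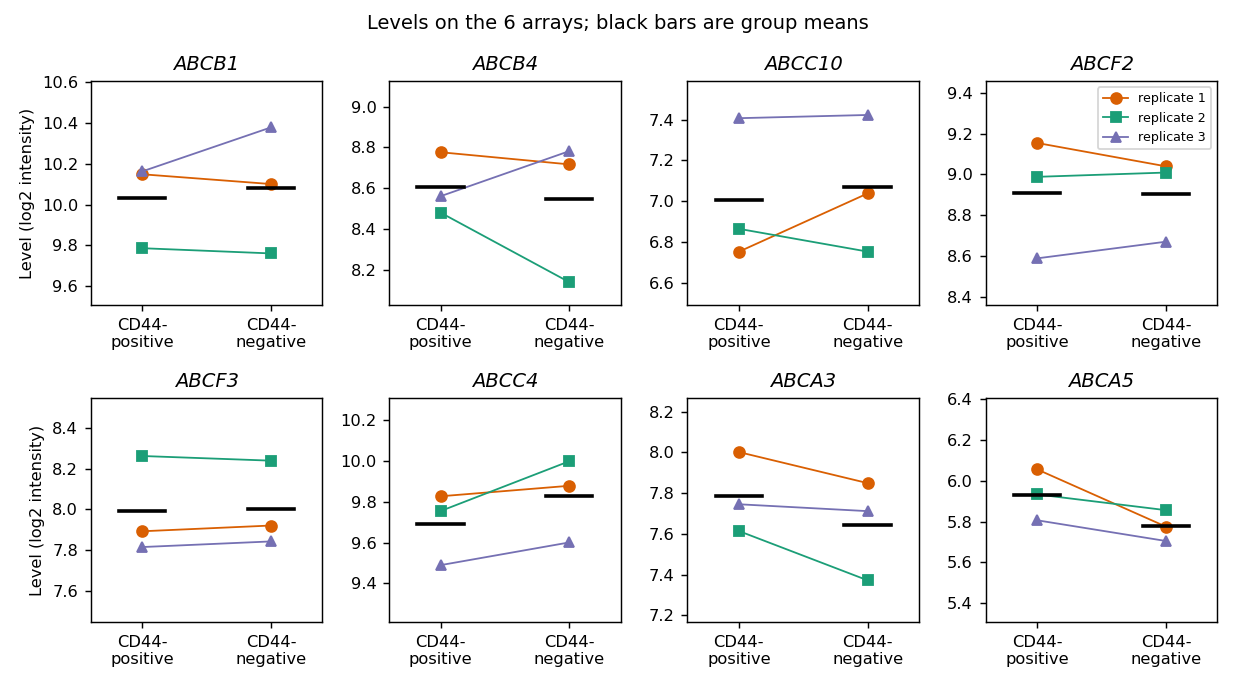
Level (log2 intensity) of 8 ABC genes on the 6 arrays, CD44-positive left of CD44-negative, with lines joining same-numbered arrays and black bars as group means. The lines stay in the same order across the sorts in ABCB1, ABCF2, ABCF3 and ABCA3. The group means of ABCA5, 0.15 apart, are the farthest from each other.

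Genes that work with ABC proteins were read from 8 lists. Of their 107 genes, 83 were tested, and of these 0 passed in the fit without and 0 in the fit with the block. The 3 family members with other symbols were CFTR, the chloride channel, which was dim, and the peptide transporter subunits TAP1 and TAP2. TAP1 differed by 0.11 and TAP2 by 0.18, higher in 3 of 3 pairs each, with adjusted p values of 0.792 and 0.735 with the block. TAP2 stood at 7.95, 7.78 and 7.56 in CD44-positive cells, against 7.54, 7.73 and 7.47 in CD44-negative cells, so the groups overlapped.

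Among 16 tested xenobiotic sensors and detoxification enzymes, 8 were above and 8 below 0, with a median of 0.0092. AHR, the aryl hydrocarbon receptor, which senses planar aromatic compounds, stood at 7.97, 7.36 and 7.68 in CD44-positive cells, against 7.38, 6.87 and 7.20 in CD44-negative cells. It was higher in 3 of 3 pairs, the groups overlapped and the difference was 0.52 ± 0.18 (SE), with an adjusted p of 1.00 without and 0.0640 with the block. With the block it passed with a variance trend (adjusted p = 0.0101) and without replicate 3 (0.0208), and not in the other blocked settings, up to 0.168. CYP1A1, an enzyme induced through AHR, was at 6.18, 6.59 and 5.79 in CD44-positive cells, against 5.78, 5.82 and 5.56 in CD44-negative cells. Its difference was 0.47 ± 0.19 (SE), with an adjusted p of 0.285 with the block and 0.0325 with the block without replicate 3. The AHR response letters TNGCGTG were in 1 of the 49 ABC promoter windows, that of an ABCA2 start, or 2.04%, against 4.52% of all windows.

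The other partner lists lay close to 0. Of 16 tested genes of sterol regulation and lipid efflux 11 were above 0, with a median of 0.022. INSIG1 (0.15) and HMGCS1 (-0.13) had the smallest unadjusted p with the block. Drug uptake carriers had 2 of 9 above 0 and a median of -0.027, with SLC29A2 at -0.14 and SLCO4A1 at 0.084. Haem and iron-sulfur genes had 7 of 15 above 0 and a median of -0.0027, with ACO1 at 0.14 and ALAD at -0.15. Peroxisomal genes had 9 of 13 above 0 and a median of 0.013, with PEX2 at 0.091 and PEX3 at -0.072. Ribosome recycling genes had 5 of 10 above 0 and a median of -0.0074, with GSPT1 at -0.13 and EIF3A at -0.11. The pore subunits of ATP-sensitive potassium channels, KCNJ8 and KCNJ11, differed by 0.093 and -0.041.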

How the data were processed

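Biotin-labelled cRNA from total RNA was measured on Affymetrix arrays, per the labels. The deposited values are linear intensity values made with RMA (background correction, quantile normalization and summary per probe set), per the submitters' processing notes. Its version and the genome build are not given in the sources used here. RMA compresses differences near background. Here log2 was taken with no pseudocount.

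The table held 54675 probe sets, of which 62 were controls, 41091 had 1 gene in the platform annotation, 1801 several and 11721 none. Symbols were updated through RefSeq for 41037. Array medians lay between 44.9 and 46.5 and arrays correlated at 0.991 to 0.997. The number of arrays limits the precision. Left out of the family were 3 pseudogene probe sets and 2 shared by several genes. Some family members were not analysed here.

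Genes were fitted with limma 3.58.1 in R 4.3.3 (lmFit and eBayes, two-sided), tested first on simulated data. Other steps used matplotlib 3.10.9, numpy 2.4.6 and pandas 2.3.3 under Python 3.11.15. The fit without a block is the main one. After group means were subtracted, arrays of the same number correlated at 0.465, 0.689 and 0.626 over all tested genes. For this reason numbers were treated as pairs in the blocked fit. Arrays of different numbers correlated at -0.496 to -0.107. Subtracting the means pushes these below 0 when same-numbered arrays correlate, so they are no separate evidence of pairing. The pairing comes from the data alone.

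Array values are given for the 6 tested ABC genes of lowest unadjusted p, per direction and per fit, and for ABCB1, ABCC1, ABCG2, ABCB5, ABCA1, ABCG1 and ABCE1. Tested genes without overlap or past the threshold would have been added. ABCF2, ABCF3 and ABCC9 were added after their values were seen. Members and lists were chosen with earlier results of these data known. Partner genes were named where they passed, or else the 2 with the smallest p with the block.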

Additional observations from a re-analysis of the deposited data

How the results depend on the processing

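The count of ABC genes past the threshold was 0 in the main fit and under each of the 21 alternatives, replicate block included. Over all genes the count was 0 to 2 in settings without the block and 5 to 127 with it. These changed the normalization, the brightness limit, the probe set per gene, the variance model, the block and the arrays used. The median difference of 0.0028 stayed within its spread between pairs except without CD44-negative replicate 3, where it was 0.019. Leaving out 1 array gave medians from -0.0044 to 0.019, and leaving out 1 pair with the replicate block gave 0.0060 to 0.012. With the replicate block alone the median was 0.0028 again, by construction. ABCA1, ABCA3, ABCA5 and ABCC4 kept their sign in every setting that tested them, from -0.19 to -0.015, 0.0065 to 0.25, 0.089 to 0.22 and -0.25 to -0.035. The other 11 tested genes with array values changed sign in 1 to 4 settings, and none passed in any. ABCC3 moved to -0.028 with the mean of its probe sets.

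The test by replicate number passed 4 ABC genes. It passed 0 with no brightness filter (3.77% of all genes), 8 at the 50th percentile (20.8%) and 9 with a variance trend (22.8%). With only probe sets free of the suffixes _s_at, _x_at and _a_at it passed 1 (7.89%), ABCC5, which was not among those 4. Without 1 replicate number it passed 2 to 6 (4.88% to 14.3%), beside 10.3% in the main setting. The cause was not tested. Brightness over background limits what the 16 dim genes can show, and 3 arrays a group limit the rest: an exact permutation test could not go below p = 0.1.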
